A study of Mus musculus with 16 samples.

Results

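The 8 genes described here are the ligand gene Csf1, the receptor genes of the colony-stimulating factors (Csf1r, Csf2ra, Csf2rb, Csf2rb2 and Csf3r), and Kit and Flt3, which encode the other receptor kinases that PLX3397 inhibits. They were chosen by name from the 53850 genes of the deposited table. A filter on low values (normalised read count of at least 10 in at least 4 libraries) left 19594 genes for testing, and 7 of the 8 members passed it. Kit did not. The RNA came from microglia of the cortex of young C57BL/6J mice, obtained by fluorescence-activated sorting, and the study asks how the microglial response to PLX3397 differs by sex. There were 4 groups of 4 libraries each: females fed chow with PLX3397 for 1 week, females on control chow, males fed chow with PLX3397 for 1 week, and males on control chow. No transgene or deletion is named for any group, and on PLX3397 only the microglia that were still present could be sorted. Age in days and the sorting gate are not given in the sources used here. Nor do these say that each sample is its own animal, so p-values measure only how far these samples spread, which may be technical variation.

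CSF1R is a receptor tyrosine kinase of the type III family, with KIT, FLT3 and the platelet-derived growth factor receptors, and microglia depend on it for survival and renewal. It binds CSF1 and interleukin 34 and signals through the Ras-ERK cascade, phosphoinositide 3-kinase and Src-family kinases. PLX3397 (pexidartinib) is a small molecule that blocks its kinase activity. The receptors for GM-CSF and G-CSF have no kinase of their own and signal through Janus kinases. The receptor for GM-CSF joins a ligand-binding alpha chain, CSF2RA, to the common beta chain CSF2RB, and mice have a second beta chain, encoded by Csf2rb2, that pairs with the interleukin 3 receptor alpha chain. CSF3R, the receptor for G-CSF, is best known from neutrophils. The table measures transcripts, and neither the receptor proteins nor kinase activity.

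Library totals ran between 32600000 and 44200000 normalised counts, and the smallest step between low values gave an estimated 21700000 to 78600000 reads per library. The 12 microglia markers summed to 1329874 to 1579079 in females on PLX3397, 1909589 to 2347103 in female controls, 815010 to 1203065 in males on PLX3397 and 2005910 to 2172101 in male controls. The 13 neutrophil markers summed to 1046 to 3493, 202.6 to 271.4, 10697 to 75706 and 530.6 to 3668 in the same 4 groups. The 2 libraries that stand apart are both male. Replicate 3 of the males on PLX3397 holds the neutrophil sum of 75706, and replicate 4 of the male controls has a normalised count of 516 for Xist, the transcript of the inactive X chromosome, against 14.7 to 31.4 in the other male libraries. Called results of the members in males are therefore given with and without these 2 libraries, and for other named genes a male call that ended without both is stated.

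Promoter sequences are shown for the 2 members that were higher on PLX3397 in both sexes, Csf1 and Csf2ra. They are the 250 bases before the RefSeq start on build GRCm38.p6, written 5′ to 3′ on the minus strand, at chr3:107760470-107760719 for Csf1 and chr19:61228419-61228668 for Csf2ra. RefSeq entries were matched for 6 of the 8 members. No entry was matched for Csf1r and Csf2rb. Capitals mark matches to the motifs described after the sequences.
Csf1: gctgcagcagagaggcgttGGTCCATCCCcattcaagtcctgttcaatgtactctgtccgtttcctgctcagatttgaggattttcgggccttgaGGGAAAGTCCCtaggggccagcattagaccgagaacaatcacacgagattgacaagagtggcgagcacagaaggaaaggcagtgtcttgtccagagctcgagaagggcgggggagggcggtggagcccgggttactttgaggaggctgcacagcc
Csf2ra: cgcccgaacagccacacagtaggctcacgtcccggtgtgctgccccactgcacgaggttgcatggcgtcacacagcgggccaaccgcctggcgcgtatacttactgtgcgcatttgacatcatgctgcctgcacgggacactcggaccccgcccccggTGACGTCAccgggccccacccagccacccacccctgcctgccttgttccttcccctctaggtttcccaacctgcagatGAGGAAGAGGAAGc
The motifs, chosen after the sequences had been seen, were NF-kB (GGGANNNNCC), PU.1 (GAGGAAG), AP-1 (TGANTCA) and CRE (TGACGTCA), each searched on both strands. The Csf1 window holds 3 matches to the NF-kB letters, whose first bases lie 231, 155 and 154 bases before the start, and the last 2 overlap. The Csf2ra window holds 2 matches to the PU.1 letters, at 14 and 8 bases before the start, which share 1 base, and 1 match to the CRE letters at 92 bases. Of 32851 promoter windows of this length, 17.6% held the NF-kB letters, 10.6% the PU.1 letters, 6.75% the AP-1 letters and 1.55% the CRE letters. Among the other members, the Csf3r window matched the NF-kB and PU.1 letters, the Csf2rb2 and Kit windows matched the PU.1 letters, and the Flt3 window matched none of the 4. A match describes letters and is not a bound site.

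Between PLX3397 and control chow, 2 of the 8 members changed in females, Csf1 and Csf2ra, both higher on PLX3397. In males 4 of the 8 changed: Csf1, Csf2ra and Flt3 were higher on PLX3397 and Csf1r was lower. These calls are at an adjusted p under 0.05 in limma, adjusted over all 19594 genes tested. Over those genes, 5.34% were called in females (2.67% higher and 2.67% lower) and 11.7% in males (4.16% higher and 7.52% lower). The median change of the 7 tested members was 0.05 on the log2 scale in females and 0.20 in males, beside medians over all tested genes of -0.0032 and 0.021. In sorted bulk samples, fewer cells with a transcript and less of it per cell cannot be told apart.

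**Figure D1:**
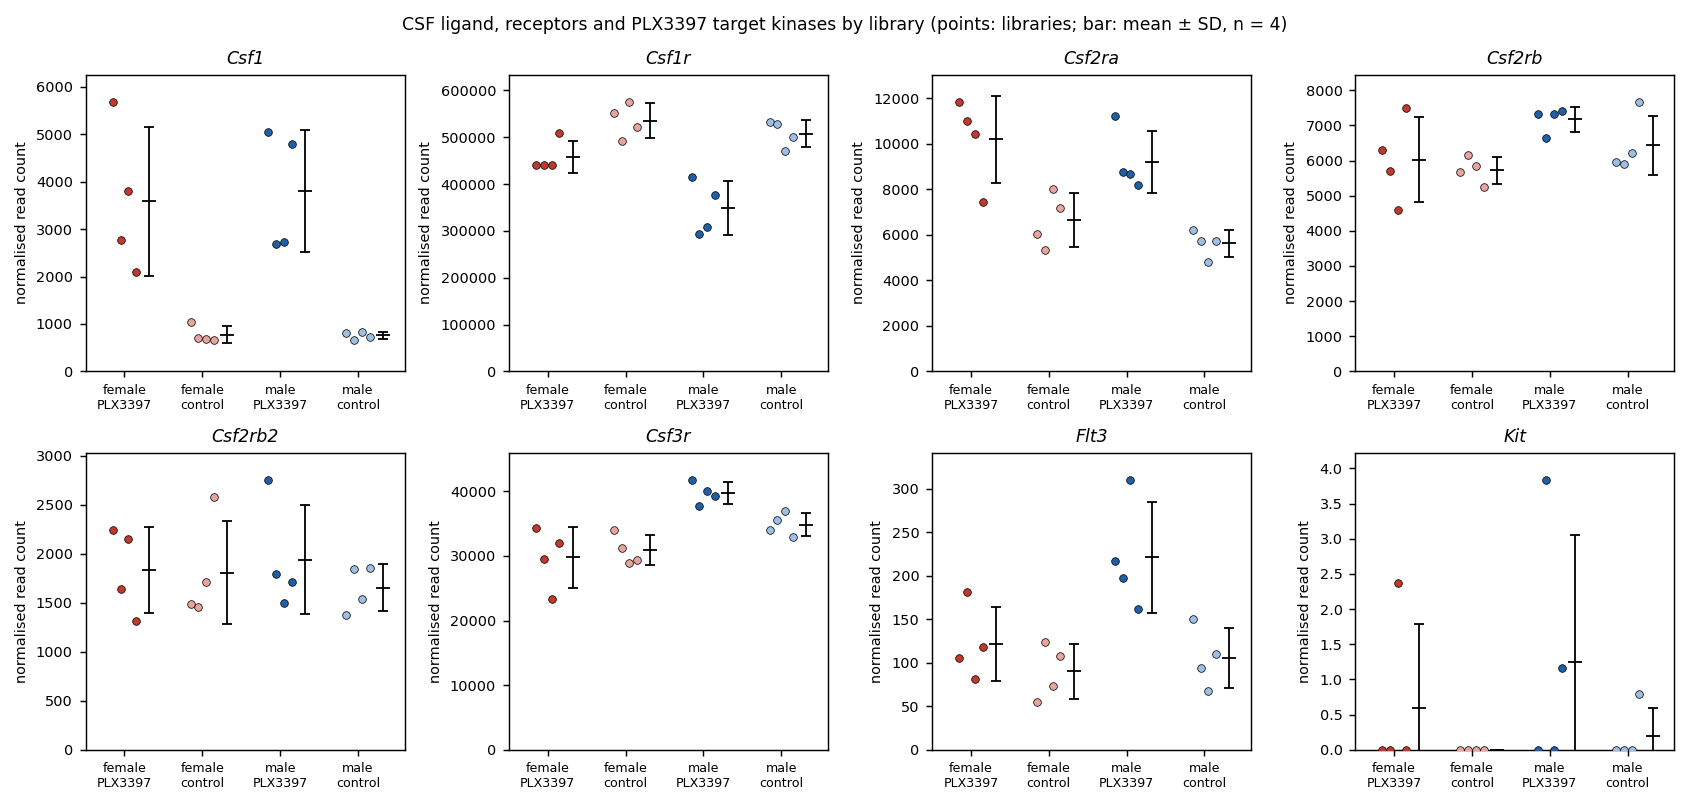
Normalised read count of each of the 8 members (vertical axes, linear from 0) in the 16 libraries, by group, with points for libraries and bars for the mean ± SD of 4 libraries. Csf1 lies between 2085 and 5690 in the libraries on PLX3397, all above the controls, and Kit is at 0 in 12 of the 16 libraries.

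Csf1 encodes the ligand of CSF1R, and its change was the widest of the 7 tested members in both sexes. Its normalised counts were 5690, 2761, 3810 and 2085 in females on PLX3397, against 1041, 709.4, 675.2 and 666.1 in female controls. In males they were 5056, 2678, 2728 and 4784 on PLX3397, against 809.6, 670.3, 840.7 and 731.9 on control chow. All 8 libraries on PLX3397 lay above all 8 control libraries, and the spread was wide on PLX3397, where the highest library of the females was at 5690 and the lowest at 2085. The fold was 4.4 in females (log2 change 2.14 ± 0.277, SE; limma adjusted p = 0.000167) and 4.79 in males (2.26 ± 0.277; adjusted p = 4.43e-05). Without the 2 male libraries that stand apart, the log2 change in males was 2.38 (adjusted p = 0.000436). The responses of the sexes differed by -0.12 (females minus males, 95% interval -0.95 to 0.71; adjusted p = 0.945).

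Csf1r, the receptor gene, made up about 1% of the normalised counts of each library. Its normalised counts were 440196, 439828, 440361 and 508013 in females on PLX3397, against 552726, 491805, 576267 and 521296 in female controls. In males they were 415935, 293096, 308004 and 376934 on PLX3397, against 533588, 528209, 469959 and 499792 on control chow. The male groups did not overlap. The female groups overlapped only through replicate 4 on PLX3397, which lay above the lowest control library. Csf1r fell to 0.68 of the control level in males (log2 change -0.56 ± 0.0933; limma adjusted p = 0.000729), and the change was -0.51 without the 2 libraries that stand apart (adjusted p = 0.00933). In females the change was -0.23 (95% interval -0.43 to -0.03) and did not pass the test (adjusted p = 0.206). That result depends on scaling, since the female change passed with libraries scaled to equal totals (-0.23, adjusted p = 0.0198) or equal upper quartiles (-0.26, adjusted p = 0.0395). It did not pass with quantile normalisation (-0.21, adjusted p = 0.153), and the size of the change was similar under each scaling. The microglia markers moved the same way, with 10 of 12 lower on PLX3397 in females and 11 of 12 in males. Of all tested genes, 2.67% were called lower in females and 7.52% in males. Among the female calls, that of Fcrls ended without females on PLX3397 replicate 1 or 2 or female control 1 or 3, and that of Gpr34 without females on PLX3397 replicate 1 or 3 or female control 1 or 3 or with no filter. Markers of border-associated macrophages, which also depend on CSF1R, were lower as well, 4 of 9 in females and 6 of 9 in males. Their sums were 1038 to 1517 in females on PLX3397 and 1707 to 3809 in female controls, and 751.6 to 1146 in males on PLX3397 and 2053 to 3241 in male controls. Pf4, F13a1, Cd209f and Cd163 were lower in both sexes, and Lyve1 and Mrc1 in males. Of these, Cd163 ended under 15 of 29 alternatives in males, 10 of them the omission of 1 library, and without females on PLX3397 replicate 1 or 2 in females. In males Lyve1 ended with voom weights, and Mrc1 ended with equal totals, without males on PLX3397 replicate 2 or 3 or male control 4, and without both libraries that stand apart (adjusted p = 0.145). The part of these markers in the change of Csf1r was not tested.

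As a share of a library's total, Csf1r made up 1.04 to 1.21% in females on PLX3397, against 1.27 to 1.3% in female controls. In males the share was 0.878 to 1.07% on PLX3397, against 1.16 to 1.28% on control chow. On this scale, which does not use the authors' scaling between libraries, the groups did not overlap in either sex. How many other genes had groups without overlap on this scale was not computed. On the deposited values 10.4% of tested genes in females and 17.6% in males had such groups, and the female Csf1r groups overlapped. Csf1 was higher on PLX3397 and the estimate for Csf1r was lower, in females without passing the test. The ratio of their counts in a library therefore moved further than either, and it restates those 2 results. Csf1 stood at 0.41 to 1.29 per 100 Csf1r counts in females on PLX3397, against 0.117 to 0.188 in female controls. It stood at 0.886 to 1.27 in males on PLX3397, against 0.127 to 0.179 in male controls. These ratios are of counts and not per length, so they compare libraries and not the amounts of the 2 transcripts.

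**Figure D2:**
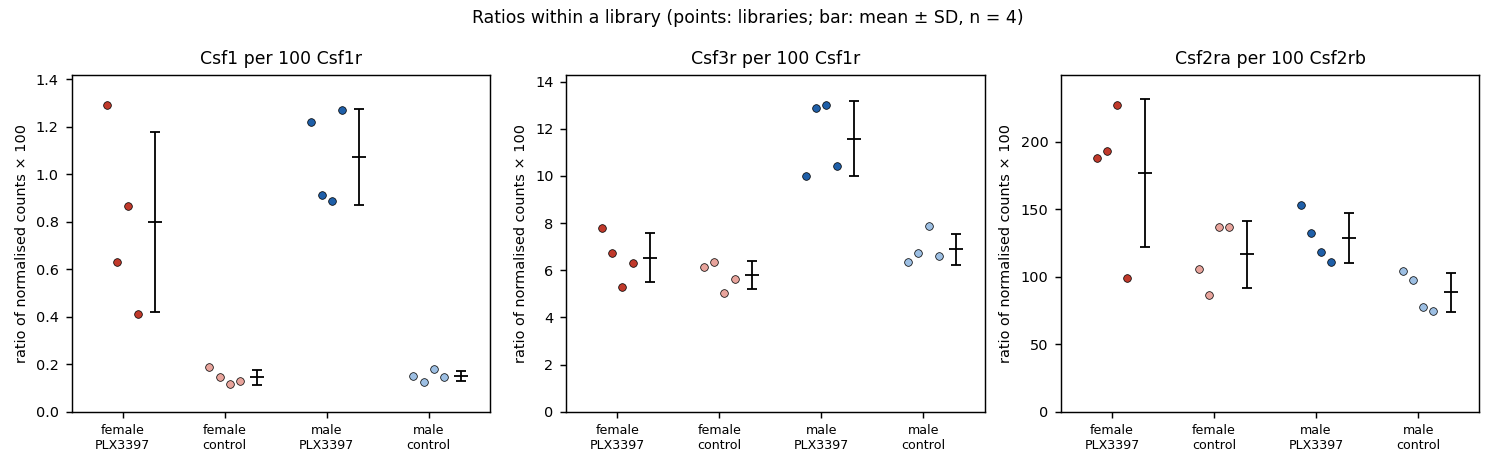
Ratio of normalised counts within each library, per 100 of the second gene, for Csf1 to Csf1r, Csf3r to Csf1r and Csf2ra to Csf2rb, with points for libraries and bars for the mean ± SD of 4 libraries. The Csf1 to Csf1r ratio is 0.41 to 1.29 in libraries on PLX3397 and at most 0.188 in controls, and the Csf3r to Csf1r ratio reaches 10.0 to 13.0 in males on PLX3397 only. Against male controls, Csf1r was called lower in that group and Csf3r was not called.

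Csf2ra, the alpha chain that binds GM-CSF, was higher on PLX3397 in both sexes. Its normalised counts were 11849, 11007, 10440 and 7438 in females on PLX3397, against 6036, 5326, 8028 and 7173 in female controls. In males they were 11218, 8774, 8664 and 8196 on PLX3397, against 6220, 5731, 4823 and 5728 on control chow. The male groups did not overlap, and in females replicate 4 on PLX3397 fell among the controls. The fold was 1.53 in females (log2 change 0.61 ± 0.155; limma adjusted p = 0.0268) and 1.63 in males (0.71 ± 0.155; adjusted p = 0.00605). In males the call held without the 2 libraries that stand apart (0.74, adjusted p = 0.0273). In females it ended in a fit to the female libraries alone (adjusted p = 0.0862) and on leaving out replicate 1, 2 or 3 on PLX3397 (adjusted p = 0.0929, 0.0821 and 0.0635) or control replicate 1 or 2 (0.0814 and 0.0867). The responses of the sexes differed by -0.09 (females minus males, 95% interval -0.56 to 0.37; adjusted p = 0.922).

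The beta chain genes did not pass the test in either sex. Csf2rb, the common beta chain, averaged 6030 ± 1209 in females on PLX3397 and 5726 ± 383 in female controls (SD, n = 4 each). It averaged 7176 ± 351 in males on PLX3397 and 6440 ± 840 in male controls. The log2 changes were 0.05 in females (95% interval -0.21 to 0.32; limma adjusted p = 0.894) and 0.16 in males (-0.11 to 0.43; adjusted p = 0.485). Csf2rb2, the beta chain specific to the interleukin 3 receptor in mice, ranged from 1314 to 2236 in females on PLX3397, against 1452 to 2579 in female controls. It ranged from 1497 to 2753 in males on PLX3397, against 1376 to 1854 in male controls. Its log2 changes were 0.03 (-0.44 to 0.50; adjusted p = 0.972) in females and 0.20 (-0.27 to 0.67; adjusted p = 0.647) in males. These genes are near-identical in part: 892 windows of 50 bases occur in both, 17.1% of those of Csf2rb and 18.8% of those of Csf2rb2, so reads may be split between them and both values are uncertain. The ratio of alpha to beta chain varied between libraries. Csf2ra stood at 99.1 to 227 per 100 Csf2rb counts in females on PLX3397 and 86.5 to 137 in female controls, and at 111 to 153 in males on PLX3397 and 74.6 to 104 in male controls. The female ranges overlapped and the male ranges did not.

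Csf3r, the receptor for the granulocyte factor G-CSF, did not pass the test of PLX3397 against control chow in either sex. Its normalised counts were 34348, 29603, 23269 and 31931 in females on PLX3397, against 33967, 31262, 28909 and 29397 in female controls. In males they were 41792, 37714, 40039 and 39314 on PLX3397, against 33951, 35566, 36947 and 32915 on control chow. The female groups overlapped and the male groups did not. The log2 change was -0.06 in females (95% interval -0.27 to 0.14; limma adjusted p = 0.82) and 0.19 in males (-0.02 to 0.40; adjusted p = 0.254). Groups without overlap were found for 10.4% of all tested genes in females and 17.6% in males, and the two-sided exact permutation p of Csf3r in males, 0.0286, is the smallest that 4 against 4 can give. The male change passed after scaling to equal totals (0.35, adjusted p = 0.0357) or quantile normalisation (0.40, adjusted p = 0.018), and equal totals moved the median of all genes by 0.16. Relative to the receptor for CSF1, Csf3r stood at 10.0 to 13.0 per 100 Csf1r counts in males on PLX3397, against 6.36 to 7.86 in male controls. In females the ratio was 5.28 to 7.80 on PLX3397, against 5.02 to 6.36 in controls.

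**Figure D3:**
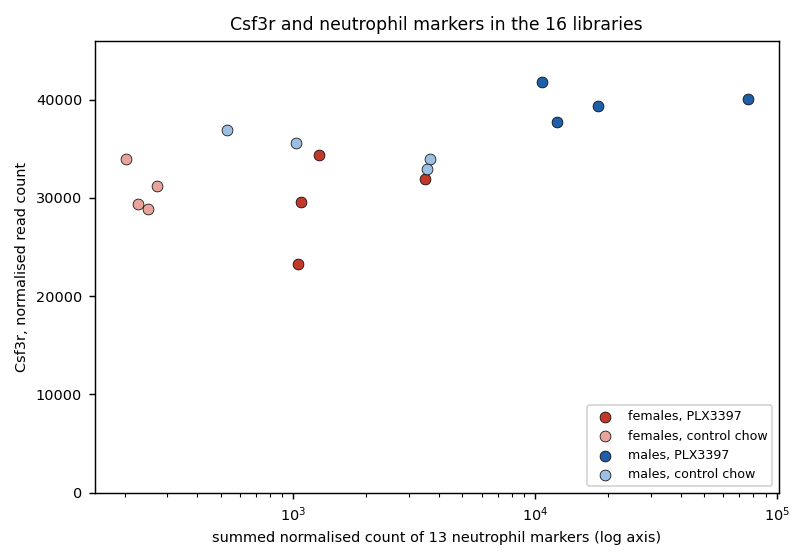
Normalised count of Csf3r (vertical axis) against the summed normalised count of 13 neutrophil markers (horizontal log axis) in the 16 libraries, coloured by group. Male PLX3397 replicate 3 has a marker sum of 75706 and a Csf3r count of 40039, between those of the other libraries of its group.

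Of 11 tested neutrophil markers, 6 were called higher on PLX3397 in females and 9 in males, and 8 were lower in females than in males on PLX3397. The shares of all tested genes in these 3 comparisons and directions were 2.67%, 4.16% and 1.15%. On control chow 5 were lower in females than in males: S100a8, S100a9, Ngp, Ltf and Lcn2. With voom weights none of these 5 (adjusted p = 0.966) and none of the 6 female calls held (adjusted p = 0.402 to 0.724). Among the 9 male calls, Camp ended without males on PLX3397 replicate 3 or male control 2, with no filter and in a fit to the 2 groups alone. Lcn2 ended without males on PLX3397 replicate 3 or male control 2 or 3, and both Lcn2 and Mmp9 ended without the 2 libraries that stand apart (adjusted p = 0.077 and 0.0824). Among the 8 calls between the sexes on PLX3397, Lcn2 and Ly6g ended without males on PLX3397 replicate 3, without both libraries and in a fit to the 2 groups alone, the last of which also ended Ltf. Mmp9 ended under 7 of 29 alternatives, among them the omission of replicate 2 or 3 of either PLX3397 group, and Ngp under 12, among them the omission of replicate 1, 2 or 3 of the females or 2, 3 or 4 of the males on PLX3397 or of male control 2. Ly6g, a defining neutrophil marker, was at 0.465, 0, 18.1 and 0 in females on PLX3397 and at 0 in all 4 female controls. It was at 24.5, 26.7, 92.1 and 76.2 in males on PLX3397 and at 0 in all 4 male controls. In males on PLX3397 the library with the sum of 75706 had a Csf3r count of 40039, within the 37714 to 41792 of the other 3, whose sums were 10697 to 18193. In females the sums did not overlap between PLX3397 and control chow, and the Csf3r counts did. The part of neutrophil RNA in the Csf3r level was not tested.

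Flt3, the receptor for FLT3 ligand and best known from dendritic cell and blood progenitors, was expressed at a low level. Its normalised counts were 105.2, 181.2, 81.34 and 118.2 in females on PLX3397, against 55.19, 123.9, 73.1 and 107.4 in female controls. In males they were 216.5, 196.9, 310.2 and 161.2 on PLX3397, against 150.4, 93.7, 66.92 and 110.4 on control chow. The female groups overlapped, and the male groups did not. The fold was 2.12 in males (log2 change 1.08 ± 0.332; limma adjusted p = 0.0443), and in females the change was 0.44 (95% interval -0.27 to 1.14; adjusted p = 0.572). The male call is marginal. It ended with a looser filter or none (adjusted p = 0.0617 and 0.0735), with quantile normalisation (0.0687), without both libraries that stand apart (0.95, adjusted p = 0.18) and on leaving out any 1 of 9 libraries: males on PLX3397 replicate 1 (adjusted p = 0.0815), 2 (0.0767) or 3 (0.14), male control 2 (0.1), 3 (0.135) or 4 (0.0702), females on PLX3397 1 (0.0515) or 4 (0.0545), and female control 4 (0.0503). The highest value, 310.2, belonged to the library with the highest neutrophil sum. The 8 dendritic cell markers summed to 625.2 to 774.3 in females on PLX3397 and 941.8 to 1877 in female controls, and to 361.3 to 756.2 in males on PLX3397 and 1197 to 1630 in male controls. In both sexes 3 of the 8, Itgae, Cd209a and Klrd1, were called lower on PLX3397, the Klrd1 calls ending under 19 of 29 alternatives in females and 11 in males (adjusted p = 0.084 in males without both libraries that stand apart), and the other 5 were not called. Of those 5, Zbtb46 averaged 390 in females on PLX3397, 287.6 in female controls, 287.7 in males on PLX3397 and 355 in male controls. In this order, Clec9a averaged 40.38, 4.596, 10.58 and 2.684, and Ccr7 38.57, 0.3323, 27.17 and 12.32. Xcr1 averaged 47.71, 47.54, 60.82 and 67.45, and Cd24a 0, 0, 53.33 and 9.144. The median change of the list was 0.0332 in females and -0.148 in males. Calls lower over all tested genes were 2.67% in females and 7.52% in males. The part of other cells in the Flt3 level was not tested.

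Kit, the receptor for stem cell factor, was at or near 0. The 4 libraries above 0 were replicate 3 of the females on PLX3397 (2.375), replicates 2 and 4 of the males on PLX3397 (3.838 and 1.2) and replicate 4 of the male controls (0.7928). Every female control was at 0. A two-sided exact permutation test gave p = 1.0 in females and p = 0.429 in males, and these counts are too low to show a change of ordinary size. Of 8 markers of mast cells, which are known for high Kit, 5 were at 0 in every library, Cpa3 among them. The 8 summed to 15.09 to 33.02 in females on PLX3397 and 7.432 to 186.2 in female controls, and to 15.23 to 514.9 in males on PLX3397 and 10.68 to 17.11 in male controls. The high sums came from Hdc, the histidine decarboxylase gene, which reached 494.8 in males on PLX3397 and 179.8 in female controls and did not pass the test in either sex (limma adjusted p = 0.827 in females and 0.119 in males). The sum of 514.9 and the Hdc value of 494.8 belong to replicate 3 of the males on PLX3397, the library with the neutrophil sum of 75706.

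**Figure D4:**
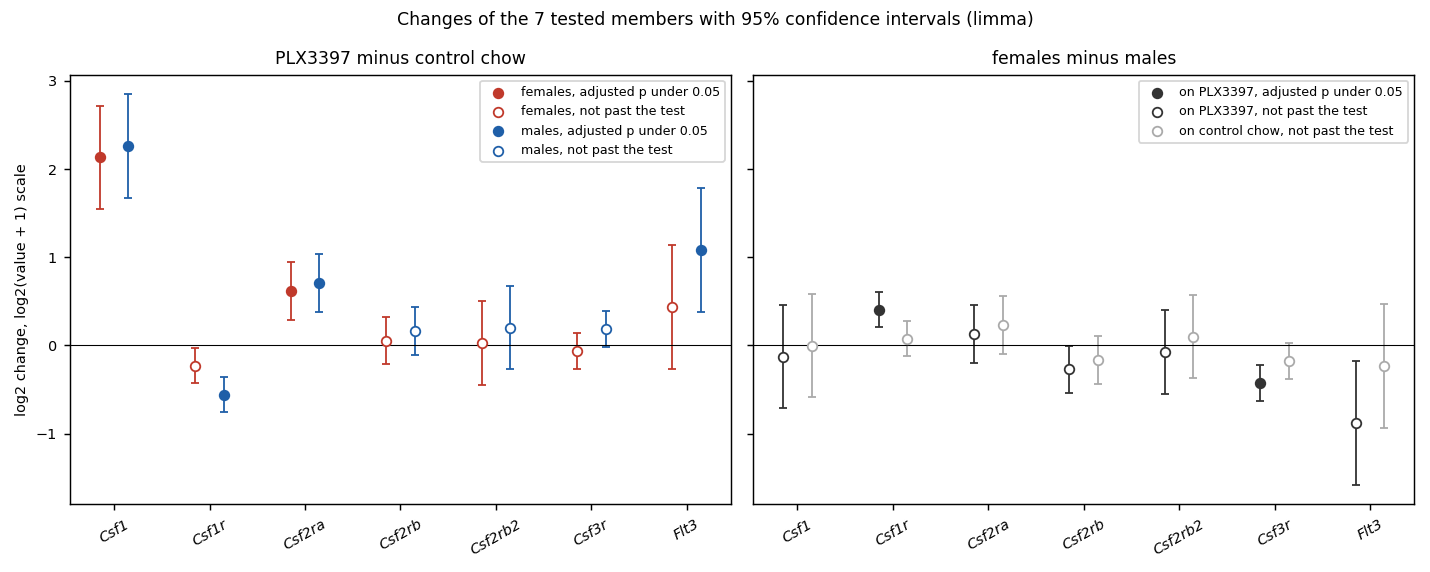
Change of the 7 tested members on the log2(value + 1) scale with 95% confidence intervals from limma, for PLX3397 minus control chow in each sex (left) and for females minus males on each chow (right). Filled points are at an adjusted p under 0.05: Csf1 and Csf2ra in both sexes, Csf1r and Flt3 in males, and Csf1r and Csf3r between the sexes on PLX3397.

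Between the sexes on PLX3397, Csf1r was higher in females and Csf3r was lower in females, and the other 5 tested members did not pass the test. Over all tested genes 5.43% were called in this comparison, 4.28% higher in females and 1.15% lower. The Csf1r counts of the females on PLX3397, 439828 to 508013, lay above the 293096 to 415935 of the males on PLX3397, a fold of 1.32 (log2 difference 0.40, 95% interval 0.21 to 0.60; limma adjusted p = 0.0225). The Csf3r counts of the females on PLX3397, 23269 to 34348, lay below the 37714 to 41792 of the males on PLX3397, a fold of 0.743 (-0.43, 95% interval -0.63 to -0.22; adjusted p = 0.0204). Neither pair of groups overlapped, as was so for 12.1% of all tested genes. The Csf1r call ended with equal upper quartiles (0.25, adjusted p = 0.0606), equal totals (0.20, adjusted p = 0.0638) and quantile normalisation (0.19, adjusted p = 0.228), with no filter (adjusted p = 0.0715), and without males on PLX3397 replicate 2 (adjusted p = 0.0765) or 3 (0.0714) or females on PLX3397 replicate 4 (0.0585). The Csf3r call held under these 3 scalings (adjusted p = 0.00924, 0.00624 and 0.0083) and ended without males on PLX3397 replicate 3 (0.0532). Equal upper quartiles and equal totals moved the median of all genes by -0.15 and -0.20, and relative to that median Csf1r was at 0.42 and Csf3r at -0.41 under both. Both calls ended without the 2 libraries that stand apart (adjusted p = 0.0919 for Csf1r and 0.0657 for Csf3r) and in a fit to these 2 groups alone (0.124 and 0.118). In the same comparison 9 of 12 microglia markers were called higher in females, and 8 of 11 tested neutrophil markers lower. The microglia sums were 1329874 to 1579079 in females and 815010 to 1203065 in males on PLX3397. All 9 microglia calls ended in a fit to these 2 groups alone. The part of these markers in the Csf1r and Csf3r differences was not tested.

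On control chow no member passed the test between females and males, where 0.0663% of all tested genes were called by limma (13 genes, 8 with voom weights). No member had an unadjusted p under 0.05 there, as 1017 of the 19594 tested genes did (5.19%). The log2 difference, females minus males, was 0.08 for Csf1r (95% interval -0.12 to 0.27; limma adjusted p = 0.988) and -0.18 for Csf3r (-0.38 to 0.03; adjusted p = 0.976). The difference between the responses of the sexes was also tested directly. By limma 0 of the 7 tested members and 0% of all genes (0 of 19594, and 0 with voom weights) were called, while 2010 genes (10.3% of those tested) had an unadjusted p under 0.05. Csf1r was among those, 1 of the 7 tested members, with a difference of 0.33 (females minus males, 95% interval 0.05 to 0.61; unadjusted p = 0.0244, adjusted p = 0.399). For Csf3r the difference was -0.25 (-0.54 to 0.04; adjusted p = 0.548) and for Flt3 -0.64 (-1.64 to 0.35; adjusted p = 0.689). The calls in males only are therefore not shown to be particular to males.

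Levels can be set between genes only per length, and counts were divided by the length of each gene's longest transcript. On this scale Csf1r had 97235 normalised counts per kilobase in females on PLX3397, 113917 in female controls, 74131 in males on PLX3397 and 108038 in male controls. Csf3r came next with 8557, 8872, 11409 and 10010 per kilobase in the same groups, followed by Csf2ra with 5507, 3592, 4983 and 3042. Csf2rb lay between 1169 and 1464 per kilobase and Csf2rb2 between 349 and 409. Csf1 was at 859, 185, 913 and 183 per kilobase, so the ligand gene stood above Csf2rb2 in both PLX3397 groups and below it in both control groups. Flt3, at 24.6 to 60.5 per kilobase, and Kit, at 0 to 0.238, were lowest in all 4 groups.

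Genes with the most similar pattern were taken over the 16 libraries by the smallest root mean square difference between centred log2 profiles, which largely follow the same group means. For Csf1r these were Serinc3 (0.0764), Itgb5 (0.0796), Rtn3 (0.0823) and Lasp1 (0.0848), whose log2 changes were -0.15 to -0.32 in females and -0.51 to -0.57 in males. For Csf1 they were Lyz2 (0.306), which encodes lysozyme, Cd63 (0.314), a tetraspanin of lysosomes, Cxcl16 (0.325), a chemokine, and Plaur (0.335), the urokinase receptor, with changes of 1.99 to 2.47 in females and 1.74 to 2.45 in males. For Csf2ra they were Atox1 (0.108), a copper chaperone, Tbc1d8 (0.148), Rps20 (0.169), a ribosomal protein, and Pea15a (0.177). Flt3 had no gene closer than Slc1a5 (0.369), a neutral amino acid transporter. Csf3r and Csf2rb each appeared among the 4 genes nearest to the other, with a difference of 0.147.

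Of 9 other ligands and partner chains of these receptors, 4 were tested. Il34, Csf3, Il3 and Il5, genes of 4 ligands, were at 0 in every library, and Csf2, which encodes GM-CSF, was above 0 in 1 female control (1.1). Kitl and Flt3l, ligands of KIT and FLT3, and Il5ra, the interleukin 5 receptor alpha chain, did not pass the test in either sex. Il3ra, the interleukin 3 receptor alpha chain, averaged 211.5 ± 74.1 in females on PLX3397 and 56.72 ± 40.4 in female controls (SD, n = 4 each). It averaged 159.4 ± 82.2 in males on PLX3397 and 49.94 ± 16 in male controls. It was higher on PLX3397 in females (log2 change 2.03; limma adjusted p = 0.00979) and in males (1.59; adjusted p = 0.0248), and the male call ended without males on PLX3397 replicate 4, male control 2 or male control 4 (adjusted p up to 0.0767) and without both libraries that stand apart (0.116). So 2 ligand-binding alpha chains of the beta-chain receptors, Csf2ra and Il3ra, were higher on PLX3397 in both sexes, and Il5ra was not called. Pdgfrb, a related kinase and a marker of mural cells, averaged 0 in females on PLX3397, 20.37 in female controls, 0.8721 in males on PLX3397 and 26.13 in male controls. It passed in males (adjusted p = 0.0389), and that call ended under 9 of 29 alternatives, among them leaving out males on PLX3397 replicate 1, 3 or 4 or male control 2, 3 or 4, or both libraries that stand apart (adjusted p = 0.14).

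Among 30 adaptors and effectors of CSF1R signalling, all tested, 1 was higher and 3 were lower on PLX3397 in females, and 3 were higher and 7 lower in males. Of all tested genes, 2.67% were called higher and 2.67% lower in females, and 4.16% higher and 7.52% lower in males. The medians of the list were -0.03 and -0.11 on the log2 scale. Tyrobp, which encodes the adaptor DAP12, averaged 60508 ± 5807 in females on PLX3397 and 40812 ± 3492 in female controls, and 62354 ± 11888 in males on PLX3397 and 41803 ± 1179 in male controls (SD, n = 4 each). It was higher in females (log2 change 0.57; limma adjusted p = 0.00428) and in males (0.56; adjusted p = 0.0025). Sh2b3, which encodes the inhibitory adaptor LNK, was lower in females (-0.81; adjusted p = 0.00384) and in males (-1.28; adjusted p = 3.61e-05). Pik3cg, a phosphoinositide 3-kinase catalytic subunit, was lower in males (-1.06; adjusted p = 0.000137) and in females (-0.58; adjusted p = 0.0256). The female call ended without PLX3397 replicate 1 or 2 or control replicate 1, 2 or 4 (adjusted p up to 0.0906). Inpp5d, the phosphatase SHIP1, was lower in females (-0.42; adjusted p = 0.00965) and stood at -0.11 in males (adjusted p = 0.501).

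The Src-family kinase gene Lyn averaged 34969 ± 2220 in females on PLX3397 and 37059 ± 2855 in female controls, and 25297 ± 2344 in males on PLX3397 and 36146 ± 1696 in male controls. It was lower on PLX3397 in males (-0.52; limma adjusted p = 0.000299) and higher in females than in males on PLX3397 (0.47; adjusted p = 0.00556), a call that ended with quantile normalisation and in a fit to those 2 groups alone (adjusted p = 0.0983 and 0.0645). Its change in females was -0.08 (adjusted p = 0.677), and the difference between the sexes' responses was 0.44 (adjusted p = 0.213). Sh2b3 and Ptpn6 were also higher in females than in males on PLX3397, and these calls ended under 13 and 11 of 29 alternatives. The call of Sh2b3 ended without females on PLX3397 replicate 2, 3 or 4 or males on PLX3397 1 or 2. That of Ptpn6 ended without females on PLX3397 replicate 1 or 3, males on PLX3397 2 or 3, or male control 2. Both ended without the 2 libraries that stand apart (adjusted p = 0.0611 and 0.129). Ptpn6 was lower on PLX3397 in males, as were Gab1 and Plcg2, and Gab2 and Fgr were higher. Of these 5 male calls, that of Ptpn6 ended with quantile normalisation, and those of Gab1, Plcg2, Gab2 and Fgr ended under 6, 12, 16 and 14 of 29. Omitting males on PLX3397 replicate 1 or 2 or male control 2 ended all 4 of these, and the last 3 also ended without males on PLX3397 replicate 3, male control 4 or both (adjusted p = 0.166 for Plcg2, 0.218 for Gab2 and 0.259 for Fgr).

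**Figure D5:**
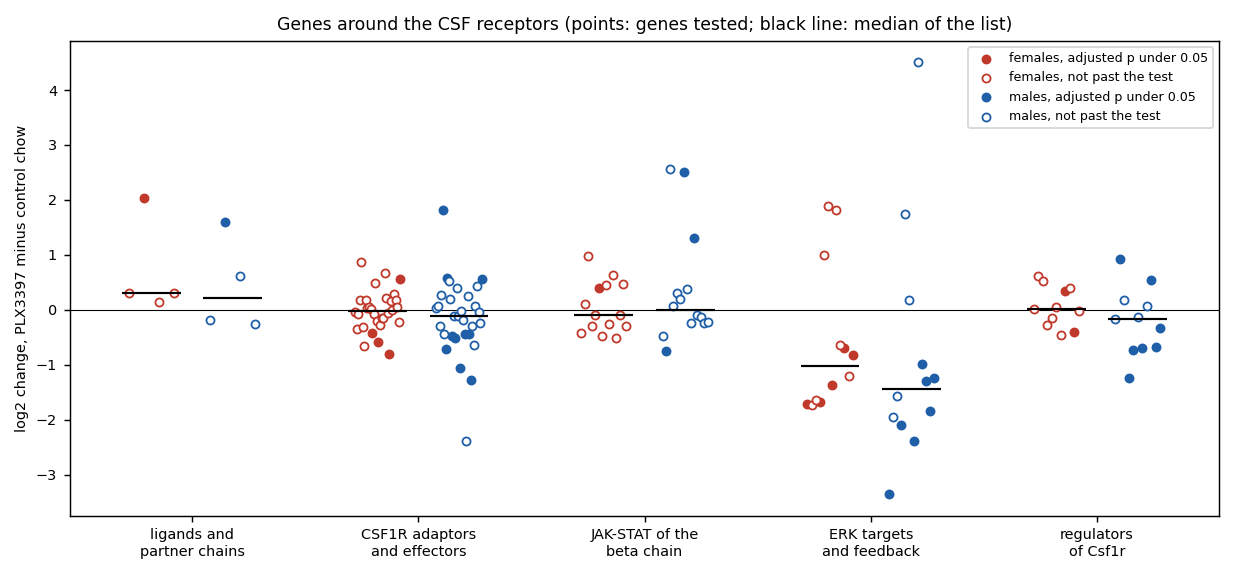
Log2 change on PLX3397 against control chow for each tested gene of 5 lists around the receptors, with females left of males, filled points at an adjusted p under 0.05 and black lines at the median of each list. The medians of the ERK list lie at -1.02 in females and -1.44 in males, and the medians of the other lists lie between -0.17 and 0.31.

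Of the 12 tested genes of the ERK list, none was called higher, and 5 were called lower in females and 7 in males. Over all tested genes 2.67% were called lower in females and 7.52% in males. The genes not called did not all fall. Egr1 averaged 856.9 in females on PLX3397 and 387.6 in female controls, and 914.7 in males on PLX3397 and 311.9 in male controls. Fos averaged 107.5 against 16.15 in females and 307.9 against 59.32 in males. Dusp6, the ERK phosphatase gene, changed by -1.68 in females (limma adjusted p = 4.58e-06) and -2.11 in males (adjusted p = 3.12e-07), and Etv5, Spry1 and Ccnd1 were lower in both sexes as well. The other call in females, Spred1, ended under 13 of 29 alternatives, 9 of them the omission of 1 library, and was lower in males (adjusted p = 0.000232). Myc and Spred2 were called lower in males, and both ended without the 2 libraries that stand apart (adjusted p = 0.08 and 0.0814). Myc also ended without males on PLX3397 replicate 2 or 3 or male control 1 or 2 and in a fit to the male libraries alone. Of 14 genes of JAK-STAT signalling downstream of the beta chain, 1 was called in females and 3 in males. In either direction 5.34% of all tested genes were called in females and 11.7% in males. Mcl1, a survival gene, was higher on PLX3397 in females (0.39; adjusted p = 0.0131, and 0.0512 without PLX3397 replicate 1). Bcl2l1, which encodes the survival factor BCL-XL, was lower in males (-0.74; adjusted p = 0.00258), at 4174 ± 362 on PLX3397 against 6984 ± 499 on control chow (SD, n = 4 each), and changed by 0.10 in females (adjusted p = 0.805). The STAT5 target genes Pim1 (2.51; adjusted p = 0.0246) and Socs2 (1.32; adjusted p = 0.0343) were higher in males, and both calls ended under 6 of 29 alternatives. For Pim1 these included the omission of males on PLX3397 replicate 1, 2 or 3, male control 2 or 3, or both libraries that stand apart (adjusted p = 0.055), and for Socs2 the omission of males on PLX3397 replicate 2 or 4 or male control 1 or 3.

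Of 11 regulators of Csf1r transcription or shedding, 1 was higher and 1 lower on PLX3397 in females, and 2 were higher and 5 lower in males. Beside these counts, 5.34% of all tested genes were called in females and 11.7% in males. None of the 11 was called for the difference between these responses. Sall1, a transcription factor that keeps microglial identity, was lower in females (-0.40; limma adjusted p = 0.00953) and males (-0.69; adjusted p = 5.32e-05). Fli1, an ETS factor, averaged 8263 ± 890 in females on PLX3397 and 9192 ± 956 in female controls, and 5568 ± 281 in males on PLX3397 and 9292 ± 512 in male controls. It was lower in males (-0.74; adjusted p = 5.99e-05), stood at -0.15 in females (adjusted p = 0.449), and was higher in females than in males on PLX3397 (0.56; adjusted p = 0.00556, and 0.0644 in a fit to those 2 groups alone). Maf (-0.69; adjusted p = 0.0028) and Ets2 (-1.23; adjusted p = 0.00448) were lower in males. Cebpa, a myeloid factor, was higher in males (0.92; adjusted p = 0.00635) and stood at 0.61 in females (adjusted p = 0.109). Spi1, which encodes PU.1, was lower in males (-0.33; adjusted p = 0.0155), and that call ended without males on PLX3397 replicate 3, male control 2 or both libraries that stand apart (0.0873 for the last) and with equal totals or quantile normalisation (adjusted p up to 0.415). Runx1 was higher in males (0.54; adjusted p = 0.0401), and its call ended under 9 of 29 alternatives, among them leaving out males on PLX3397 replicate 1, 2 or 3, male control 2, 3 or 4, or both libraries that stand apart (adjusted p = 0.179).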

How the data were processed

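The series holds 1 table of normalised read counts (a signal per gene and library), deposited by the authors, with 53850 genes and 16 libraries; 51029 genes carry a symbol. Per the submitters' processing notes the tools were bcl2fastq 2.19.1, STAR 2.7.9a, Subread, featureCounts 2.0.1 and Salmon 1.5.2 with build GRCm39, listed without role or order. Per the labels' protocols, a low-input SMARTer kit amplified the RNA ahead of Nextera XT library preparation, which can distort low transcripts. How the authors normalised is not given in the sources used here. Low values of a library lie on near-regular steps of 0.5161 to 1.9193. The step was read from the most frequent low value and taken as the worth of about 1 read. Since the low values are not exact multiples of it, no count model was used.

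The test was limma (3.58.1, under R 4.3.3) on log2(value + 1), with an intensity trend, all 16 libraries, 1 mean per group and Benjamini-Hochberg adjustment over the 19594 genes with at least 10 in at least 4 libraries. Fold changes are on that scale, which understates changes of low genes. Of 5 comparisons, 2 set PLX3397 against control chow, once per sex, 1 took the difference between these responses, and 2 set females against males, once per chow. The threshold was an adjusted p under 0.05. Single members also had a two-sided exact permutation test, whose smallest p with 4 against 4 is 0.0286. The fit was tested on simulated data.

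Members and gene lists were chosen with earlier results of these data known. The text names all members and, of each list and comparison, up to 4 called genes with the smallest p, plus any needed to account for a count of 5 or fewer. Egr1 and Fos of the ERK list are named as well, because their means moved the other way. So are the 5 dendritic cell markers that were not called. Some genes of the lists are not reported here, though the list counts and medians include them. Similar genes are the 4 nearest with a proper name and a profile SD within 1.3 times the member's. Gene lengths and shared windows came from GENCODE M21 transcripts, with the longest coding transcript per gene. Sample numbers did not pair libraries: same-numbered libraries of different groups correlated at -0.0446 to 0.115 (median 0.00484, 24 pairs), and others at -0.0699 to 0.0494. Alternatives were pseudocounts of 0.5 and 5, other filters, 3 other scalings, a fit to the 2 groups compared, array and voom weights, a replicate block, each library left out, and both libraries that stand apart left out.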

Additional observations from a re-analysis of the deposited data

Results flagged for a closer look

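Among the 32 sets of 4 libraries formed by the 8 members and 4 groups, 5 held a library far from the other 3 of its group, where chance alone gives about 1 set in 20 for values that spread normally. The 2 Kit sets among them, with 3 libraries at 0, stand out by construction. Csf1r was highest in replicate 4 of the females on PLX3397, at 508013, against 439828 to 440361 in the other 3. Csf1 was highest in replicate 1 of the female controls, at 1041, against 666.1 to 709.4 in the other 3. Csf2rb was lowest in replicate 2 of the males on PLX3397, at 6654, against 7316 to 7412 in the other 3. Kit was at 2.375 in replicate 3 of the females on PLX3397 and at 0.7928 in replicate 4 of the male controls, with the other 3 libraries of each group at 0. For Kit these values amount to a few reads at most.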

How the results depend on the processing

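The 35 member results (7 tested members in 5 comparisons) gave 1008 values under alternatives, of which 940 kept both direction and side of the threshold, 32 lost the call, 4 gained one and 32 changed sign. The cause of these changes was not tested. Csf1 in both sexes, and Csf1r and Csf2ra in males, kept their calls under all 29 alternatives. None of the reversals concerns a value that passed the test.

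Of the members, 1 was called in females in a fit to the 2 groups alone (2 in the full fit). Between the sexes on PLX3397, 1 member was called with no filter, with equal upper quartiles, with equal totals and with quantile normalisation, and 0 in a fit to the 2 groups or without both libraries that stand apart (2 in the full fit). Over all genes that comparison gave 669, 606, 571, 467, 44 and 345 calls under these 6 alternatives (1064 in the full fit). Males gave 1518 calls without both libraries, against 2289. The difference between responses gave 1 call with a pseudocount of 5 and 2 without both libraries, against 0. Females against males on control chow gave 8 calls with voom weights, against 13.

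With each library left out in turn, calls over all genes ran from 332 to 1242 between the sexes on PLX3397, 0 to 6 for the difference between responses and 11 to 20 between the sexes on control chow, and reached 2312 in males. Member calls ran from 1 to 2 in females and 0 to 2 between the sexes on PLX3397.

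Reversed outside these omissions were Csf2rb2 in females with array weights (-0.018), Csf1 between the sexes on control chow with array weights (0.033), and Csf2ra between the sexes on PLX3397 with equal upper quartiles (-0.018), equal totals (-0.067) and quantile normalisation (-0.065). The first 2 of these scalings moved the median of all genes in that comparison by -0.15 and -0.20. On leaving out 1 library or both that stand apart, ranges that crossed 0 were, in females, -0.058 to 0.18 for Csf2rb, -0.077 to 0.21 for Csf2rb2 and -0.14 to 0.050 for Csf3r. For the difference between responses they were -0.38 to 0.10 for Csf1, -0.19 to 0.050 for Csf2ra, -0.22 to 0.014 for Csf2rb and -0.34 to 0.013 for Csf2rb2. Between the sexes on PLX3397 they were -0.38 to 0.10 for Csf1 and -0.18 to 0.11 for Csf2rb2, and on control chow -0.15 to 0.061 for Csf1 and -0.086 to 0.19 for Csf2rb2.

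With sample number as a replicate block, Flt3 in males was no longer called (1.08, adjusted p = 0.0653), and no other member call changed. Only 2 of 16 libraries correlated best with a library of their own number. Depth limits Kit, whose counts are near the worth of 1 read, and Flt3, at 55.19 to 310.2.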
